A study of Mus musculus with 42 samples.

Results

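Genes of the acute phase response, the set of plasma proteins that the liver makes in altered amounts during inflammation, were followed in the livers of APOE*3-Leiden mice on chow, on a Western-type diet (WTD) and on WTD with atorvastatin. They are the serum amyloid A genes Saa1, Saa2, Saa3 and Saa4, the orosomucoid genes Orm1, Orm2 and Orm3, haptoglobin (Hp), hemopexin (Hpx) and lipocalin 2 (Lcn2). The genes were chosen by name, and all 10 of them were found among the 54446 genes of the count table through their Ensembl identifiers.

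Liver RNA of 42 female mice was sequenced at 32 weeks, with 1 library per mouse. All mice carried the APOE*3-Leiden transgene, a human apolipoprotein E variant that slows the clearance of remnant lipoproteins and gives mice a lipoprotein profile closer to that of humans. The WTD group and the WTD+Atorvastatin group, of 16 mice each, were 8 to 14 weeks old at the start and ate WTD with 1% cholesterol, 15% cocoa butter and 40.5% sucrose for a run-in of 3 weeks and then for the whole study. Their diet also held 0.05% sodium cholate from week 22. Atorvastatin, an inhibitor of the rate-limiting enzyme of cholesterol synthesis, was mixed into the diet of the second group at 3 mg/kg/day and, from week 5, at 4.5 mg/kg/day. The 10 mice of the Chow group were kept on maintenance chow, and their age is not given in the labels. Chow mice carry another series of mouse numbers (AZ#) than the other mice (Gen#), and the labels do not say what the series stand for. Diet and any difference between the series cannot be told apart. Both WTD-fed groups received cholate, which none of the Chow mice did, so that the effects of the parts of the diet cannot be told apart either.

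Acute phase genes are switched on in hepatocytes mainly by interleukin 6, acting through STAT3, and by interleukin 1, acting through NF-kB and C/EBP factors. Saa1 and Saa2 encode the inducible serum amyloid A proteins, which bind to high-density lipoprotein. Saa3 is made by macrophages and adipocytes as well as by hepatocytes, and Saa4 encodes a form that is made constitutively and changes little in inflammation. Orosomucoids are carriers of small molecules with effects on immune cells. Haptoglobin captures free hemoglobin and hemopexin captures free heme, and Lcn2 binds the siderophores with which bacteria take up iron. Lcn2 is also a protein of neutrophil granules.

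The genes lie in a few places of the genome (GRCm38). On chromosome 7, Saa3, Saa4, Saa1 and Saa2 stand in that order between positions 46711998 and 46754313, and Hpx lies apart from them at 105591613 to 105600137. The orosomucoid genes lie together on chromosome 4, from 63344560 to 63365878, with Orm3 between Orm1 and Orm2. Hp lies on chromosome 8 at 109575128 to 109579172 and Lcn2 on chromosome 2 at 32384633 to 32388252. All are protein-coding, and none overlaps another annotated gene.

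Sequences upstream of the genes are shown because the neighbours within a family are near-copies whose levels are compared throughout. Windows from 250 to 61 bases before the start of transcription were taken from RefSeq (GRCm38.p6), in which 8 of the 10 genes had an entry, all except Orm1 and Hp. Capitals mark the letters TTGCNNAA, one form of the C/EBP binding motif, on either strand. Saa1 (chr7:46743041-46743230, minus strand) and Saa2 (chr7:46751583-46751772, plus strand) point away from each other, and their windows were identical at 178 of 189 aligned bases (94.2%). Each carried the letters once, 182 to 175 bases before the start in Saa1 and 183 to 176 bases in Saa2.
Saa1: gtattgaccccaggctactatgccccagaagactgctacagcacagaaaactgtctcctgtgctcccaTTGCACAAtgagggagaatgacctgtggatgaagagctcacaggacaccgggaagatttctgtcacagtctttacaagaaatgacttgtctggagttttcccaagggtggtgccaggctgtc
Saa2: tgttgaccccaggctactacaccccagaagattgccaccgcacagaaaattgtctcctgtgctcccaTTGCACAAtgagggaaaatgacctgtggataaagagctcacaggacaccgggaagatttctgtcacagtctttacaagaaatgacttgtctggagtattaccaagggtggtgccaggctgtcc
The Saa4 window (chr7:46732664-46732853, minus strand), from the constitutive member of the same cluster, carried the motif at its far end.
Saa4: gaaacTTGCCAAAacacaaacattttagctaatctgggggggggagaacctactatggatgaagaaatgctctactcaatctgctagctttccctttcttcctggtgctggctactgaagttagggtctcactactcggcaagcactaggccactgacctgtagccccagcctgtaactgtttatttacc
Orm2 (chr4:63362199-63362388, plus strand) and Orm3 (chr4:63355908-63356097, plus strand) were identical at 163 of 186 aligned bases (87.6%), and both held the motif about 120 bases before the start.
Orm2: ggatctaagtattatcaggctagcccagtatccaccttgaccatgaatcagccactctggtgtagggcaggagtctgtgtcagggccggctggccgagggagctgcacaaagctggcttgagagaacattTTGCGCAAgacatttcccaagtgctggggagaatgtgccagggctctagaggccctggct
Orm3: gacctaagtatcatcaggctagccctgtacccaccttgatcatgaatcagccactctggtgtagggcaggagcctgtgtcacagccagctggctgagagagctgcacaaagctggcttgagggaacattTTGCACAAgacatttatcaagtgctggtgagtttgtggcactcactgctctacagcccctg
Lcn2 (chr2:32387800-32387989, minus strand) held it 216 to 209 bases before the start.
Lcn2: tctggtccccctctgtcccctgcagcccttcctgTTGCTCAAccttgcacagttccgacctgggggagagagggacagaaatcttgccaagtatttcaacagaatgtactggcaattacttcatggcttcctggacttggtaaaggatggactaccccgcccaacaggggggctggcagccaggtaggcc
All 8 windows contained TTGCNNAA, on either strand, against 7.77% of 32851 windows of the same length in the table. For NF-kB only a single narrow form of the motif was searched, 10 letters long and present in 1.02% of all windows. In none of the 8 windows was that form found, nor TTCNNNGAA (STAT, in 5.51%) or CTGGGAA (the core of the type II interleukin 6 element, in 6.83%). Whether the windows hold other forms of the NF-kB motif was not tested. All these searches match letters in a short window and say nothing about binding.

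Near-identical copies can share reads. Over their main transcripts Saa1 and Saa2 were 94.4% identical, Orm1 and Orm2 91.0%, Orm2 and Orm3 88.5% and Orm1 and Orm3 86.5%. The longest stretch in common was 76 bases for Saa1 and Saa2 and 141 bases for Orm1 and Orm2, so that no window of 150 bases, the length of 1 read, was shared by any pair. Read pairs that aligned to more than 1 place, 4.68% of the pairs in the table on average, were not assigned to a gene by the authors' counting. Values of single members of a family carry this uncertainty, and their sums are given below beside them.

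Libraries held between 15661381 and 36224054 counts on genes, with a median of 19421089.5. Levels are given as CPM, counts scaled to the library size by the TMM method. Single libraries stood apart in these genes. WTD replicate 15 was the lowest of the 16 WTD mice for Saa1, Saa2, Orm2, Hp, Hpx and Lcn2 and the highest for Saa4. Its summed hepatocyte markers were the highest of the WTD group (108357 CPM, median of the group 63915) and its cholangiocyte markers the lowest (183.7 CPM, median 585). WTD+Atorvastatin replicate 2 was the highest of its group for Saa1, Saa2, Orm1, Orm2, Orm3, Hp and Lcn2, and had the lowest hepatocyte sum of its group (61044 CPM, median 105718). Chow replicate 5 was the highest chow mouse for Saa1, Saa2, Saa4, Orm1, Orm2, Orm3, Hpx and Lcn2. Results are given with these 3 mice and, where a call changes, without them. In 8 libraries, called libraries of low capture below, over 20% of the genes at 1 to 2 CPM had no count. Each member was counted in every mouse, and the lowest count of any member in any mouse was 58 (Saa3).

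Haptoglobin and hemopexin dominated the group. They took 83.8% to 92.0% of the members' counts in each mouse, and all 10 genes together took a median of 0.895% of all counts on chow, 1.71% on WTD and 1.15% with atorvastatin. Per kilobase of the main transcript, on the level scale, chow livers ranked Hpx, Hp, Orm1, Saa4, Saa1, Saa2, Orm2, Lcn2, Orm3 and Saa3 from high to low. Only Hp over Orm1 and Orm1 over Saa4 did not overlap in range between neighbours of that order. On WTD the order was Hp, Hpx, Orm1, Lcn2, Saa1, Saa2, Orm2, Saa4, Saa3 and Orm3, with no overlap only between Hpx and Orm1. Lcn2 thus stood at rank 8 on chow and at rank 4 on WTD, where it was above Saa1 per kilobase in 13 of 16 mice. Saa4 went from rank 4 to rank 8, and Orm2 was above it in 14 of 16 WTD mice. With atorvastatin the order was Hpx, Hp, Orm1, Saa1, Lcn2, Saa2, Saa4, Orm2, Saa3 and Orm3, with no overlap between Hp and Orm1 and between Orm1 and Saa1. Hp was above Hpx in 15 of 16 WTD mice, whereas Hpx was above Hp in 7 of 10 Chow mice. The orders follow group means and do not hold in every mouse. With atorvastatin Hpx was above Hp in only 7 of 16 mice, and Lcn2 was above Saa2 in only 6 of 16.

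**Figure D1:**
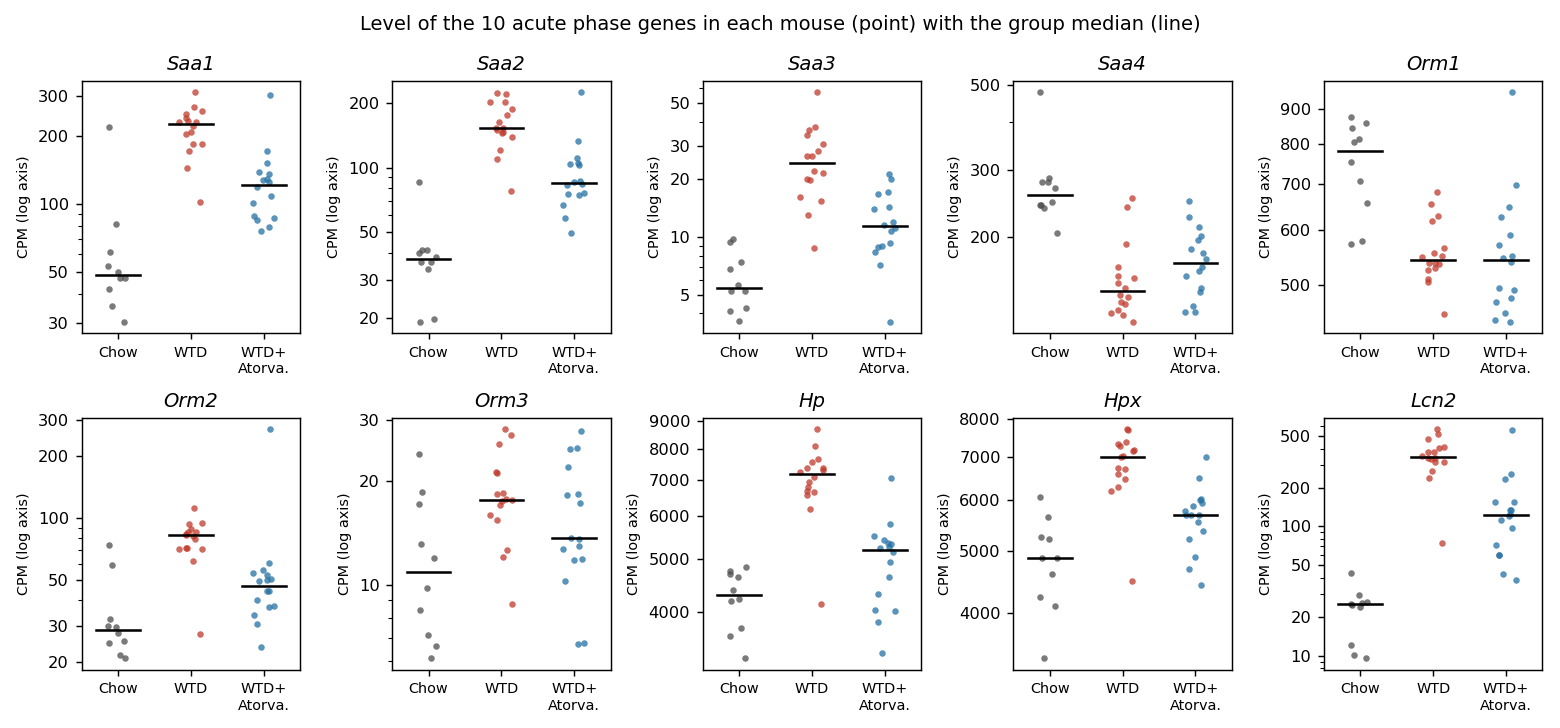
Levels of the 10 genes in CPM on a logarithmic axis, 1 point per mouse for 10 Chow, 16 WTD and 16 WTD+Atorvastatin mice, with the group median as a line. Of these 10 genes only Lcn2 has all WTD points above the chow points, and Saa4 and Orm1 are lower on WTD than on chow. How many of all tested genes separate in this way was not counted.

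The first question was how the diet changes these genes. On WTD, 7 of the 10 genes rose over chow, 2 fell and Orm3 did not pass the threshold of an adjusted p under 0.01 (edgeR quasi-likelihood test, Benjamini-Hochberg adjustment over all 15574 tested genes). For comparison, 33.5% of all tested genes were called, 17.5% as higher and 16% as lower. The median log2 difference of the 10 genes was 0.96, and that of all tested genes 0.03. In bulk tissue fewer cells of a type and less RNA per cell cannot be told apart, and this holds for every difference below. Rises ranged from 1.41-fold for Hpx to 15.4-fold for Lcn2. Saa4 and Orm1, the constitutive member of one family and the most abundant member of the other, went down.

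Saa1 ranged from 30.4 to 217 CPM on chow (median 48.8), from 102 to 310 CPM on WTD (median 226) and from 76.1 to 303 CPM with atorvastatin (median 122). All 16 WTD mice were above the chow median, but Chow replicate 5 reached into the WTD range. Saa1 rose by 1.69 log2 units (standard error 0.25, adjusted p = 5.07e-07) and by 2.10 without Chow replicate 5. Saa2 ranged from 19.2 to 86.1 CPM on chow (median 37.4), from 77.6 to 222 CPM on WTD (median 153) and from 49.5 to 224 CPM with atorvastatin (median 84.9). Of the WTD mice, 15 were above every chow mouse, the exception being replicate 15. The rise of Saa2 was 2.03 (standard error 0.22, adjusted p = 2.66e-10), and the sum of Saa1 and Saa2 rose by 1.82 (standard error 0.23, adjusted p = 2.07e-08).

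Saa3, the lowest member per kilobase on chow, ranged there from 3.63 to 9.77 CPM (median 5.44). It reached 8.79 to 56.9 CPM on WTD (median 24.4) and 3.62 to 21.4 CPM with atorvastatin (median 11.4). All but 1 of the WTD mice were above the highest chow mouse, and the rise was 2.08 (standard error 0.25, adjusted p = 1.46e-09). Saa4 went the other way, from 205 to 478 CPM on chow (median 258) to 120 to 254 CPM on WTD (median 145). In 14 of 16 WTD mice it was below the lowest chow mouse. It fell by 0.81 log2 units (standard error 0.12, adjusted p = 1.76e-07), and by 0.69 without Chow replicate 5.

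Orm1, the highest orosomucoid per kilobase, ranged from 574 to 875 CPM on chow (median 781) and from 454 to 681 CPM on WTD (median 544), with 12 of the 16 WTD mice below all chow mice. Its level fell by 0.42 (standard error 0.09, adjusted p = 0.000155). Orm2 rose instead, from 20.9 to 73.9 CPM on chow (median 28.8) to 27.4 to 113 CPM on WTD (median 82.5), where WTD replicate 15 alone was below the chow median. The difference was 1.19 (standard error 0.29, adjusted p = 0.000825), and 1.25 without that mouse. Orm3 ranged from 6.11 to 23.9 CPM on chow (median 10.9) and from 8.77 to 28.3 CPM on WTD (median 17.6), with wide overlap. Its difference was 0.59 (standard error 0.22, adjusted p = 0.0251), and it passed the threshold without Chow replicate 5 (0.75, adjusted p = 0.00404) and without the 8 libraries of low capture (0.81, adjusted p = 0.00615). Summed, the 3 orosomucoid genes differed by -0.27 (standard error 0.10, adjusted p = 0.0234), since Orm1 had the most counts. A single value for the family therefore had the opposite sign to Orm2.

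Hp ranged from 3289 to 4852 CPM on chow (median 4303) and from 4135 to 8686 CPM on WTD (median 7169). Every WTD mouse except replicate 15 was above all chow mice. The rise was 0.73 (standard error 0.09, adjusted p = 6.27e-09). Hpx behaved alike in direction, with 3405 to 6056 CPM on chow (median 4876), 4490 to 7720 CPM on WTD (median 6997) and a rise of 0.50 (standard error 0.08, adjusted p = 8.61e-07). Again 15 of the 16 WTD mice were above all chow mice.

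Lcn2 showed the widest difference of the group. It ranged from 9.56 to 44.0 CPM on chow (median 25.0) and from 74.0 to 565 CPM on WTD (median 344), without overlap. The share of all tested genes without overlap was not counted. The rise was 3.95 log2 units (standard error 0.39, adjusted p = 4.74e-11, 95% interval 3.18 to 4.71), which is 15.4-fold. The lowest WTD value was that of replicate 15, and without it the rise was 4.02. Of 12 neutrophil markers 6 could be tested, of which 5 rose on WTD, where 17.5% of all tested genes rose. Another fit, limma-voom with quality weights, called 4 of the 6 as higher. Without the libraries of low capture 4 of 8 tested markers rose. A gene can pass the count filter through the WTD mice alone, so these counts favour a rise and are no support for one. Summed over all 12, the markers went from 6.78 to 29.1 CPM on chow (median 11.0) to 21.1 to 50.5 CPM on WTD (median 32.4). Ngp and Ltf had no count in any chow mouse. The part of neutrophils in the rise of Lcn2 was not tested.

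**Figure D2:**
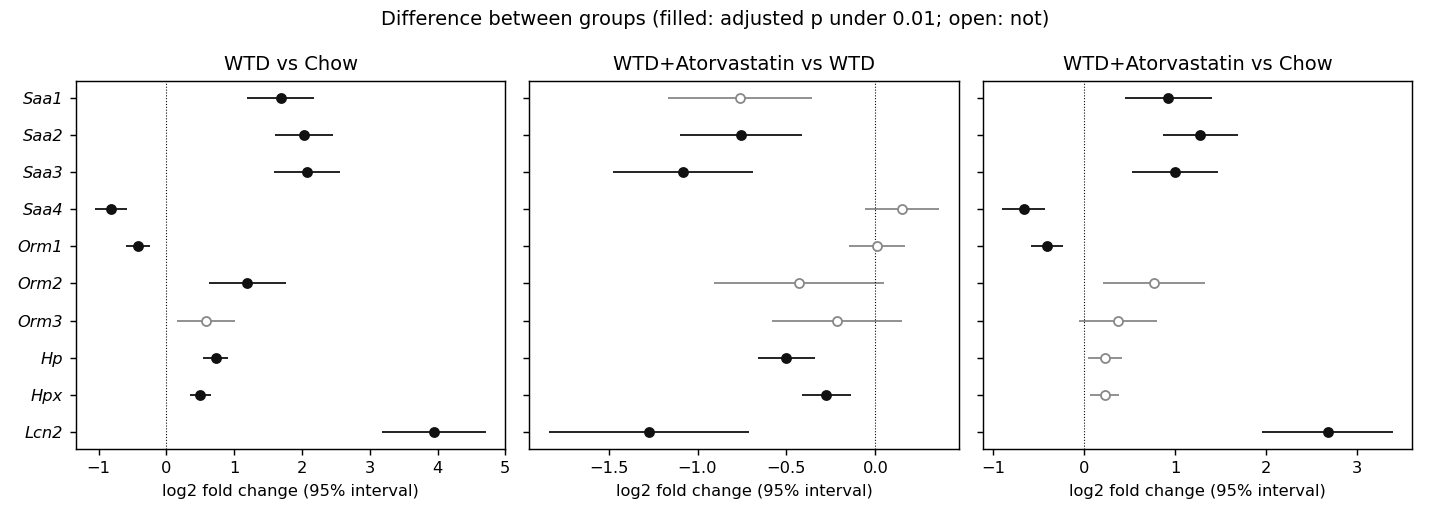
Log2 fold changes of the 10 genes with 95% intervals in the 3 comparisons, filled where the adjusted p was under 0.01. Lcn2 has the largest difference on WTD (3.95), Saa4 and Orm1 lie below 0 in both comparisons with chow, and with atorvastatin against WTD 5 genes are filled, all below 0.

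The second question was what atorvastatin changed on WTD. Of the 10 genes 5 fell (Saa2, Saa3, Hp, Hpx and Lcn2), none rose and 5 did not pass. Of all tested genes 7.1% were called, 4.84% as higher and 2.26% as lower. The median log2 difference of the 10 genes was -0.47, against 0.00 for all tested genes. The WTD mice of this comparison are the same as those of the first one, so that the 2 comparisons are not independent.

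Lcn2 ranged from 38.4 to 558 CPM with atorvastatin (median 122), and 15 of the 16 treated mice were below the WTD median of 344. The treated mice differed widely among themselves, from below the highest chow mouse (44.0 CPM) in 2 mice to the WTD range. The drop was by 1.27 log2 units (standard error 0.29, adjusted p = 0.00183), and by 1.57 without WTD+Atorvastatin replicate 2, the highest treated mouse. Without the libraries of low capture it missed the threshold (-1.09, adjusted p = 0.0154). Saa3 fell by 1.08 (standard error 0.20, adjusted p = 0.00018), with all 16 treated mice below the WTD median. Saa2 fell by 0.75 (standard error 0.18), with 6 treated mice below every WTD mouse and 1 above, and without the libraries of low capture it missed the threshold (-0.62, adjusted p = 0.018), as it did when each library's proportion of uncounted weak genes entered the fit (-0.60, adjusted p = 0.011).

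Saa1 lay at the threshold. The difference was -0.76 (standard error 0.21, adjusted p = 0.0103), nearly the same size as that of Saa2, and 15 of 16 treated mice were below the WTD median. It passed when Chow replicate 2, 5 or 9, WTD replicate 14 or 15, or WTD+Atorvastatin replicate 2 or 7 was left out, with adjusted p values from 0.00069 to 0.0087, and missed it when any other mouse was left out. Of 11 other ways of processing, 8 called it, with adjusted p values from 7.8e-07 to 0.0095, and 3 did not, with 0.01 to 0.041. The sum of Saa1 and Saa2 fell by 0.76 (standard error 0.19, adjusted p = 0.00522). Saa4, with 127 to 249 CPM in treated mice (median 171), differed from WTD by 0.15 (standard error 0.11, adjusted p = 0.433), and limma-voom with quality weights called it as higher (0.28, adjusted p = 0.0098).

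Hp ranged from 3368 to 7066 CPM with atorvastatin (median 5210) and Hpx from 4420 to 6990 CPM (median 5689). All 16 treated mice were below the WTD median in both genes. Hp fell by 0.50 (standard error 0.08, adjusted p = 3.27e-05) and Hpx by 0.28 (standard error 0.07, adjusted p = 0.00447). Among the orosomucoids, Orm1 ranged from 443 to 950 CPM in treated mice (median 543), and its difference from WTD was 0.01 with a 95% interval of -0.15 to 0.17. Orm2 ranged from 23.7 to 270 CPM (median 47.1). In 15 of 16 treated mice it was below the WTD median of 82.5, and replicate 2 alone was above every WTD mouse. The difference was -0.43 (standard error 0.24, adjusted p = 0.288), and without that mouse it was -0.83 (adjusted p = 0.000278), so the call for Orm2 rests on 1 library. DESeq2 (-0.85, adjusted p = 2.47e-06) and limma-voom with quality weights (-0.82, adjusted p = 8.59e-05) called it with all mice. Orm3, at 6.73 to 27.9 CPM (median 13.6), differed by -0.22 (standard error 0.19, adjusted p = 0.543).

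Without the 3 mice that stand apart, an alternative chosen after seeing the data, all 10 genes were called on WTD against chow, and 7 fell with atorvastatin, Saa1 and Orm2 being the additions. Calls over all tested genes went up as well, to 34.5% on WTD and 11.2% with atorvastatin.

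Treated mice were also compared with chow, with the same chow mice as in the first comparison. Of all tested genes 25% were called, 14.2% as higher and 10.7% as lower. Saa1, Saa2, Saa3 and Lcn2 were higher than on chow, Saa4 and Orm1 were lower, and Orm2, Orm3, Hp and Hpx did not pass. The median difference was 0.57 on the log2 scale, against 0.04 for all tested genes. Lcn2 was 2.67 above chow (standard error 0.37, adjusted p = 1.7e-07), with 14 of 16 treated mice above every chow mouse. The values were 0.93 for Saa1 (standard error 0.24, adjusted p = 0.00259), 1.27 for Saa2 (standard error 0.21, adjusted p = 4.91e-06) and 0.99 for Saa3 (standard error 0.24, adjusted p = 0.000831). Saa1 lost its call with only the compared groups in the fit (0.90, adjusted p = 0.014), and Saa3 lost it in limma-voom (1.09, adjusted p = 0.0173). Saa4 was lower by -0.66 (adjusted p = 1.63e-05) and Orm1 by -0.41 (adjusted p = 0.000314). For Hp the difference was 0.23 (adjusted p = 0.0519) and for Hpx 0.22 (adjusted p = 0.0238), with 10 and 2 of the 16 treated mice above all chow mice. Hpx (0.27, adjusted p = 0.00771) and Orm2 (0.96, adjusted p = 0.00803) passed without Chow replicate 5.

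Ratios of 2 genes within a library do not depend on how libraries are scaled. They are ratios of counts, not corrected for transcript length, and are compared between groups only. For 9 pairs in 3 comparisons, group means of the log2 ratio were compared by a two-sided permutation test with 100000 permutations, adjusted over the 27 tests and called under 0.05. The ratio of Saa4 to Saa1 was 2.20 to 8.84 on chow (median 4.89) and 0.551 to 2.48 on WTD (median 0.643), where 15 of 16 mice were below every chow mouse and replicate 15 was the exception. The log2 ratio was lower by -2.71 (standard error 0.22, p = 1e-05, the smallest these permutations can give, adjusted p = 3.9e-05). With atorvastatin the ratio of Saa4 to Saa1 was 0.551 to 2.65 (median 1.63), higher than on WTD by 0.97 (standard error 0.19, adjusted p = 0.0002 by the same permutation test).

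The orosomucoids also shifted relative to each other. The ratio of Orm2 to Orm1 was 0.0295 to 0.0844 on chow (median 0.0390), 0.0498 to 0.167 on WTD (median 0.152) and 0.0434 to 0.284 with atorvastatin (median 0.0799). The log2 ratio was higher by 1.68 on WTD (standard error 0.19, adjusted permutation p = 3.9e-05) and lower with atorvastatin by -0.64 (standard error 0.19, adjusted permutation p = 0.0034). Here 15 of 16 treated mice were below the WTD median, while replicate 2 was above all WTD mice. Although Orm3 alone did not pass on WTD, its ratio to Orm1 did, with medians of 0.0144 on chow and 0.0313 on WTD and a difference of 1.08 (standard error 0.19, adjusted permutation p = 6e-05). Its change with atorvastatin was -0.26 (standard error 0.16, adjusted permutation p = 0.14).

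Lcn2 rose more than Saa1. The ratio of Lcn2 to Saa1 was 0.203 to 0.552 on chow (median 0.381) and 0.723 to 2.13 on WTD (median 1.66), without overlap, a difference of 2.09 (standard error 0.17, adjusted permutation p = 3.9e-05). With atorvastatin it spread from 0.444 to 1.87 (median 0.808), lower than on WTD by -0.71 (standard error 0.20, adjusted permutation p = 0.0022). Saa1 in turn rose more than Hp, the ratio of Hp to Saa1 having medians of 84.6, 32.2 and 42.8 in Chow, WTD and WTD+Atorvastatin mice and differing by -1.17 on WTD (standard error 0.23, adjusted permutation p = 3.9e-05). Ratios of Orm1 to Saa1 had medians of 13.8, 2.52 and 4.47 in the same order. Hpx and Hp, equal in direction, differed in size on WTD, the ratio of Hpx to Hp being 1.22 on chow and 0.975 on WTD at the median (difference -0.22, standard error 0.09, adjusted permutation p = 0.015).

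Saa2 and Saa3 kept closer to Saa1. The ratio of Saa2 to Saa1 had medians of 0.663, 0.744 and 0.744 in the 3 groups, with differences of 0.20 on WTD (standard error 0.15, adjusted permutation p = 0.14) and 0.01 with atorvastatin (standard error 0.05, adjusted permutation p = 0.86). In Chow replicate 2 the ratio was highest, and without this mouse the difference on WTD was 0.30 (adjusted permutation p = 0.0067). The ratio of Saa3 to Saa1 differed by 0.11 on WTD, with a standard error of 0.27.

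**Figure D3:**
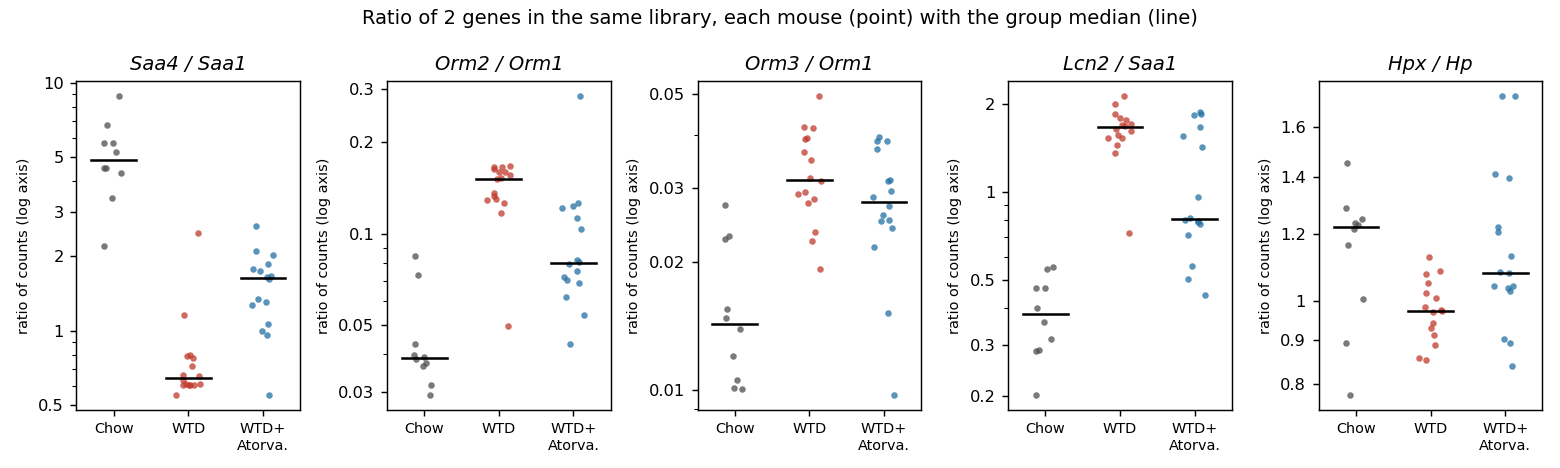
Ratios of counts of 2 genes in the same library on a logarithmic axis, 1 point per mouse for the 3 groups, with the group median as a line. Saa4 relative to Saa1 has medians of 4.89, 0.643 and 1.63 in Chow, WTD and WTD+Atorvastatin mice, and Lcn2 relative to Saa1 does not overlap between Chow and WTD.

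Mice of 1 group also differed from each other, and some members varied together. Pearson r and Spearman rho of log2 CPM were computed within each group for 45 pairs, with permutation p values adjusted over the 135 relations. Both passed an adjusted p of 0.05 in 7 pairs on WTD, 6 with atorvastatin and 1 on chow. Without the 3 mice that stand apart, both passed on WTD only for Saa1 with Saa2, Saa3 and Lcn2 and for Saa3 with Lcn2. With atorvastatin they then passed only for Saa1 with Saa2 and among Orm2, Hp and Lcn2, and on chow only for Orm2 with Orm3. How many pairs of other genes vary together was not counted. Saa1 and Saa2 had r = 0.95 on WTD (rho = 0.92, adjusted permutation p = 0.00022 and 0.00067) and r = 0.95 with atorvastatin (rho = 0.94, adjusted permutation p = 0.00022 and 0.00067), falling to 0.88 in both groups without the 2 mice farthest from the median of Saa1. On chow r was 0.82 and rho 0.50, and without Chow replicate 5 r was 0.56.

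Lcn2 varied with the abundant Hp. On WTD r was 0.92 (rho = 0.69, adjusted permutation p = 0.0025 and 0.035), 0.58 without the 2 farthest mice and 0.67 without WTD replicate 15 (adjusted permutation p = 0.052), so that on WTD the relation rests in part on this mouse. With atorvastatin r was 0.91 (rho = 0.84, adjusted permutation p = 0.00022 and 0.002), 0.91 without the 2 farthest mice and 0.88 without replicate 2. Lcn2 and Saa1 had r = 0.92 on WTD (rho = 0.85, adjusted permutation p = 0.00022 and 0.0016) and 0.86 without replicate 15.

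Orm2 followed Hp and Lcn2 in treated mice. With Hp r was 0.82 (rho = 0.87, adjusted permutation p = 0.00022 and 0.001) and with Lcn2 0.85 (rho = 0.87, adjusted permutation p = 0.00022 and 0.001), and without the 2 farthest mice these were 0.78 and 0.81. On WTD the relation of Orm2 with Hp (r = 0.84) rested on replicate 15, without which r was 0.33, and that of Hp with Hpx went from 0.86 to 0.48. Orm2 and Orm3 were the pair called on chow (r = 0.86, rho = 0.92, adjusted permutation p = 0.0031 and 0.009).

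**Figure D4:**
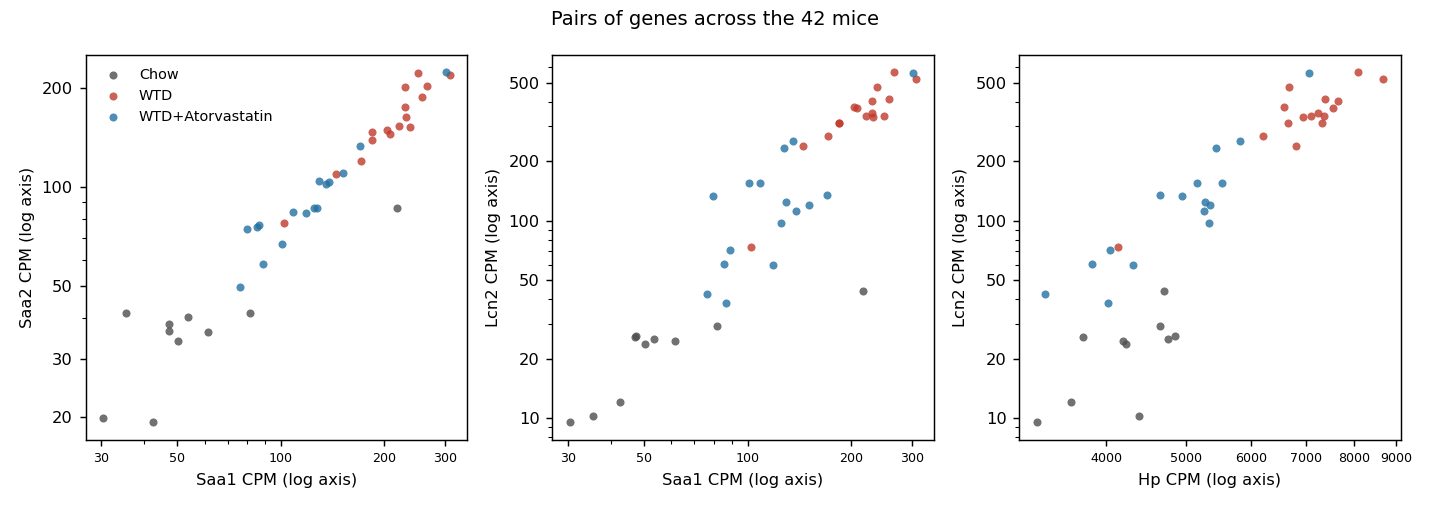
Levels of Saa2 and Lcn2 against Saa1 and of Lcn2 against Hp, in CPM on logarithmic axes, 1 point per mouse and 1 colour per group. Saa2 follows Saa1 within WTD and WTD+Atorvastatin mice (r = 0.95 in both), and 1 WTD mouse, replicate 15, lies among the treated mice at 74.0 CPM of Lcn2.

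Markers of cell types were measured beside these genes. Hepatocyte markers, which define the tissue and were present at a summed 109849 to 155546 CPM on chow (median 121838), were at 48763 to 108357 CPM on WTD (median 63915) and 61044 to 129686 CPM with atorvastatin (median 105718). All 8 fell on WTD and 5 rose with atorvastatin. Over all tested genes 17.5% rose and 16% fell on WTD, and 4.84% rose and 2.26% fell with atorvastatin. The list includes Fgb, itself an acute phase gene. Macrophage and Kupffer cell markers had medians of 507, 2580 and 1979 CPM in Chow, WTD and WTD+Atorvastatin mice. Of the 9 tested, 6 rose on WTD, 3 fell with atorvastatin and 1 rose, while Itgam was at 0 in all mice. Whether this zero comes from expression or from the counting was not tested. Of 5 markers of monocyte-derived cells 4 rose on WTD and 2, Gpnmb and Trem2, fell with atorvastatin in edgeR. All 6 cholangiocyte markers rose on WTD, and Spp1 fell with atorvastatin in edgeR. The falls with atorvastatin varied with the fit. DESeq2 called 3 monocyte-derived markers and 1 cholangiocyte marker as lower. In limma-voom, which called 20% of all tested genes, 4 and 6 were lower. Without the libraries of low capture 1 and 0 were. Of 4 adipocyte markers only Cidec could be tested, which rose by 2.21 on WTD (adjusted p = 0.00597). Plin1 had no count in any WTD mouse, Adipoq had none in any Chow mouse, and Lep was at 0 in all mice. With atorvastatin 0 of 6 tested neutrophil markers passed in edgeR or limma-voom and 0 of 5 in DESeq2, and 1 (S100a9) had an unadjusted p under 0.05 in edgeR. The median log2 difference of the 6 from WTD was -0.70 in edgeR. Summed over all 12, neutrophil markers had a median of 23.7 CPM with atorvastatin and 32.4 CPM on WTD. The part of these cells in the levels of Saa3 and Lcn2 was not tested.

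Across mice, each member was also set against the summed neutrophil, macrophage and hepatocyte markers, 90 relations in all, which were added after seeing the data. In treated mice Lcn2 was related to the hepatocyte sum with r = -0.86 (rho = -0.86, adjusted permutation p = 0.0036 and 0.0054), and r was -0.80 without the 2 farthest mice. Its relation to the neutrophil sum had r = 0.77 (rho = 0.79, adjusted permutation p = 0.019 and 0.027), or 0.60 without these 2 mice. Orm2 was related to the hepatocyte sum with r = -0.70 (rho = -0.73, adjusted permutation p = 0.013 and 0.04). No other relation passed by both measures.

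Outside the family, the genes most like Lcn2 over the 16 WTD mice, of 9095 genes with at least 10 CPM, were Gpnmb (r = 0.96), H2-M2 (0.93), Lgals3 (0.93), Cd63 (0.93) and Trem2 (0.92). Gpnmb and Trem2 are markers of lipid-laden macrophages. Without the 2 mice farthest from the median of Lcn2 these were 0.82, 0.78, 0.73, 0.66 and 0.70. Closest to Hp were Itm2c (0.96), Gpnmb (0.94), Tmem176b (0.94), Lgals3 (0.92) and Cd63 (0.91), and closest to Saa1 were Psap (0.91), Trib3 (0.91), Itm2c (0.88), Ddit3 (0.88) and Crip1 (0.87). Ddit3 and Trib3 belong to the integrated stress response. Without the 2 farthest mice r was 0.64 to 0.85 for the genes closest to Hp and 0.71 to 0.76 for those closest to Saa1. In treated mice r with Saa1 was 0.26 for Psap, 0.01 for Trib3, -0.03 for Itm2c, 0.43 for Ddit3 and 0.70 for Crip1, and r of Itm2c with Hp was 0.13. These are the highest of many values, given as a description with no test.

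Other positive acute phase genes were followed for comparison. Of 20 other positive acute phase genes, 3 rose on WTD, 9 fell and 8 did not pass, with a median difference of -0.45. Over all tested genes 17.5% rose and 16% fell. The risers were ceruloplasmin (Cp, 0.73, adjusted p = 5.18e-12), the interleukin 1 receptor antagonist Il1rn (2.61, adjusted p = 4.11e-10) and the metalloreductase Steap4 (1.36, adjusted p = 2.47e-09). Crp, the mouse C-reactive protein, fell by 0.57 (adjusted p = 7.95e-08), the serum amyloid P gene Apcs fell by 0.46 (adjusted p = 9.65e-05), and the fibrinogen chain Fgb fell by 0.50 (adjusted p = 5.06e-06). Hepcidin (Hamp), the hormone that limits iron release, fell by 1.64 (adjusted p = 1.45e-07). With atorvastatin 3 of the 20 rose, which were Hamp (0.88, log2 difference, adjusted p = 0.00279), its copy Hamp2 (2.82-fold, adjusted p = 0.00236) and the complement gene C4b (0.24, adjusted p = 0.00762), but without the libraries of low capture none of the 20 passed. Against chow 3 of the 20 were higher and 8 lower with atorvastatin, where 14.2% and 10.7% of all tested genes were. From WTD to atorvastatin 4.84% of all tested genes rose and 2.26% fell.

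Negative acute phase genes, whose plasma proteins decrease in inflammation, moved together. All 11 that could be tested fell on WTD, among them albumin (Alb), which fell by 0.90 (adjusted p = 5.19e-10), transthyretin (Ttr), which fell by 1.29 (adjusted p = 1.93e-15), and Fetub, which fell by 1.29 (adjusted p = 7.44e-18). With atorvastatin 6 of the 11 rose, including Alb (0.63, adjusted p = 1.81e-05), Gc (0.30, adjusted p = 7.74e-05) and F12 (0.36, adjusted p = 7.68e-05). Compared with chow, 6 were still lower. Among all tested genes 16% fell on WTD, 4.84% rose with atorvastatin against WTD and 10.7% were lower with atorvastatin against chow. This list holds hepatocyte markers (Alb, Ttr and Apoa2). Trf had no count in any chow mouse and was not tested. A row without counts need not mean that the RNA was absent. Ambiguous read pairs (5.95% on average) were not assigned to genes, and their part in this was not tested.

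Of 24 tested genes of the upstream cytokine signal, 11 rose on WTD, 5 fell and 8 did not pass, where 17.5% of all tested genes rose and 16% fell. The oncostatin M receptor Osmr rose by 2.01 (adjusted p = 7.16e-07), the NF-kB subunit gene Nfkb1 by 0.58 (adjusted p = 5.21e-08) and the C/EBP factor Cebpd by 1.27 (adjusted p = 8.25e-07). With atorvastatin Cebpd fell by 0.83 (adjusted p = 0.000529), the only gene of this list that edgeR called as lower, where DESeq2 called 2 and limma-voom 3. The receptor Lifr fell by 1.78 on WTD (adjusted p = 1.81e-16), and Il1rap, a subunit of the interleukin 1 receptor, fell by 1.02 (adjusted p = 2.92e-09). With atorvastatin Lifr (0.54, adjusted p = 0.000686) and Il1rap (0.46, adjusted p = 0.00334) rose. Several central genes did not pass on WTD, with differences of -0.08 for Stat3 (adjusted p = 0.506), 0.43 for its target Socs3 (adjusted p = 0.195), -0.12 for Cebpb (adjusted p = 0.719), 0.48 for Il1b (adjusted p = 0.295) and 1.93 for Tnf (adjusted p = 0.0114). Il6 was not tested, having no count in 9 of 10 Chow, 13 of 16 WTD and 13 of 16 WTD+Atorvastatin mice. Relative to chow, treated mice had 7 of the 24 genes higher and 2 lower, and 14.2% and 10.7% of all tested genes.

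Among 15 tested genes for the receptors and clearance of these proteins, 8 rose on WTD and 1 fell, where 17.5% of all tested genes rose and 16% fell. Cd163, the receptor for haptoglobin bound to hemoglobin, ranged from 0.455 to 19.8 CPM on chow (median 9.45), and had no count in 9 of 16 WTD mice and at most 1.25 CPM in the others. It fell by 5.53 log2 units (standard error 0.92, adjusted p = 2.74e-06). With atorvastatin its difference from WTD was 0.55 (adjusted p = 0.766). Hmox1, which breaks down heme, rose by 1.56 (adjusted p = 2.58e-10), and Tlr2, one of the receptors that serum amyloid A can engage, rose by 2.76 (adjusted p = 9.94e-11). Lrp1, the receptor for hemopexin bound to heme, differed by -0.04 (adjusted p = 0.716), and Slc22a17, a proposed receptor of Lcn2, by 0.39 (adjusted p = 0.365). With atorvastatin the ferritin gene Fth1 fell by 0.22 (adjusted p = 0.00591). In treated mice compared with chow, 8 of the 15 were higher and 2 lower, where 14.2% and 10.7% of all tested genes were.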

How the data were processed

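Livers of 42 mice were profiled by strand-specific poly-A RNA-seq with paired reads of 150 bases. The authors trimmed reads with Trimmomatic, aligned them with STAR 2.5 to GRCm38, counted them with HTSeq 0.6.1p1 and deposited raw counts per gene. Rows that name no gene were left out of library sizes: 5.95% of read pairs on average were ambiguous, 4.68% aligned to several places and 2.28% hit no feature. Gene names and positions came from GENCODE vM21, in which 54409 of 54446 identifiers matched.

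Counts were fitted with edgeR 4.0.16 (R 4.3.3) by the quasi-likelihood test with TMM normalization and robust dispersion over all 42 mice, after a filter on low counts (minimum count 10, minimum total 15). P values were adjusted by the Benjamini-Hochberg method over 15574 genes and called under 0.01. Standard errors are the log2 fold change over the square root of F, and intervals use 1.96 standard errors. Each replicate was a separate mouse. Ratios used counts plus 0.5. Permutation tests were two-sided, exact where a group had under 10 mice, and otherwise used 100000 permutations (scipy 1.17.1). The fitting step was tested on simulated data. The alternatives included DESeq2 1.42.0, limma-voom (limma 3.58.1), other scalings and filters, and the omission of single mice.

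The genes and lists were chosen with earlier results of these data known. Named are the 10 genes, the 3 genes of each list with the smallest p in each comparison, a set of central genes of the pathway, and the 5 genes most like Saa1, Lcn2 and Hp. Names of other genes of the marker lists were chosen after their values were seen. A result that this rule would name is not reported here.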

Additional observations from a re-analysis of the deposited data

Results flagged for a closer look

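Chow replicate 5 stood apart from the other chow mice in 4 measures, by the gap to its neighbour relative to the range of the group (Dixon's test). Its Saa1 level was 217.2 CPM with the next mouse at 81.6 CPM, its Saa2 level was 86.1 CPM with the next at 41.4 CPM, and its Saa4 level was 477.8 CPM with the next at 286.0 CPM. Its log2 ratio of Hp to Saa1 was 4.44, the lowest of the group, with the next at 5.83. This library was also 1 of the 8 of low capture, and the part of that in these values was not tested. In all, 19 measures were tested in the chow group, the only group of at most 10 mice, and chance marks about 1 in 20.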

How the results depend on the processing

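Direction and call held in 398 of the comparisons of single genes under the alternatives that keep all or most mice, while 24 gained the call, 18 lost it and 10 changed sign. With 1 mouse left out at a time, 1244 were unchanged in these respects, 11 gained the call and 5 changed sign. Counting only log2 fold changes of at least 1 in size left 5 of the 10 genes on WTD against chow, 2 with atorvastatin against WTD and 2 with atorvastatin against chow, in place of 9, 5 and 6. Of all tested genes this rule called 13.8%, 0.642% and 8.27%. The limma-voom fit called 8 of the 10 genes with atorvastatin against WTD, 7 lower and 1 higher, where it called 20% of all tested genes. The higher one was Saa4 (0.28, adjusted p = 0.0098).

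Summing the orosomucoid genes gave -0.27 on WTD and -0.32 with atorvastatin against chow, the opposite sign to Orm2 and Orm3 alone, since Orm1 had the most counts. For Orm1 with atorvastatin against WTD (0.01) the sign changed with DESeq2 (-0.0325), RLE scaling (-0.0325), upper-quartile scaling (-0.0161), at least 10 counts in every mouse (-0.0293), the summed genes (-0.0430) and without the 3 libraries that stand apart (-0.0596). Leaving out single mice gave -0.0586 to 0.0304 for Orm1.

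Without the libraries of low capture the ratio of Hpx to Hp differed by 0.16 (adjusted permutation p = 0.098) and that of Hp to Saa1 by 0.25 (adjusted permutation p = 0.06) with atorvastatin against WTD, and neither passed, while the ratio of Hpx to Hp against chow was -0.0592. Without the 3 libraries that stand apart, an alternative chosen after seeing the data, the ratio of Saa3 to Saa1 differed by -0.0566 on WTD. The causes were not tested. Leaving out single mice, the log2 ratio of Hpx to Hp with atorvastatin against chow ranged from -0.0425 to 0.0579, that of Saa3 to Saa1 from -0.0289 to 0.27 on WTD and from -0.28 to 0.0174 with atorvastatin against chow, and that of Saa2 to Saa1 from 0.12 to 0.30 on WTD, from -0.0103 to 0.0278 with atorvastatin against WTD and from 0.13 to 0.31 with atorvastatin against chow. The upper values of Saa2 to Saa1 against chow passed without Chow replicate 2 (adjusted permutation p = 0.0067 and 0.0077).

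No paired analysis was possible because the replicate numbers follow only the order of the samples and no mouse was in more than 1 group.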
